A study of Mus musculus with 18 samples.

Results

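The cytosolic ribosomal protein genes were followed through RNA sequencing of mouse skeletal muscle. They were taken as the protein-coding mouse genes named Rplp0, Rplp1, Rplp2 or Rpsa, or Rpl or Rps with a number and at most the letter a, x or l, with a mean of at least 100 summed counts over the 18 libraries. Kinases of the Rps6k family were left out. The rule kept 53 genes of the 46725 in the deposited tables, 29 of the large ribosomal subunit and 24 of the small subunit. All 53 passed the filter on low counts in both muscles. Of 55 protein-coding candidates, Rpl39l with a mean of 13.2 counts and Rpl10l with 0 counts fell below the minimum, and the lowest genes kept were Rpl29 with a mean of 1213 counts and Rpl34 with 1322. The GENCODE M21 annotation names 25 further genes that meet the naming rule, among them Rpl3, Rpl4, Rps2, Rplp2 and Rpsa, which were not analysed here. All 25 share exon bases with another gene on the same strand in that annotation, and 23 of them share bases with a small nucleolar RNA gene.

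The study compared 3 groups of 3 mice aged 20 weeks, each sampled in the gastrocnemius (gast) and the quadriceps (quad). WT mice were of the FVB strain. HSA-LR mice carry a human skeletal actin transgene with an expanded CTG repeat, which the actin promoter limits to skeletal muscle, and they model myotonic dystrophy type 1. Treated mice were HSA-LR mice given intravenous Pip6a-PMO, a CAG-repeat antisense morpholino joined to a cell-penetrating peptide. Both muscles were taken from the same treated mice, and gast and quad libraries of equal number were taken here as 1 animal, which the labels do not state. The comparisons asked how the genes differed between HSA-LR and WT mice, and between treated and untreated HSA-LR mice.

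Cytosolic ribosomes are built from ribosomal RNA and about equal copies of each ribosomal protein, so the mRNAs of these proteins are among the most abundant in most cells. Many of them begin with a cytosine followed by a run of pyrimidines, the 5′ terminal oligopyrimidine (5′ TOP) element, through which the mTORC1 pathway controls their translation. In muscle, ribosome number is part of what sets the capacity for protein synthesis and growth.

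The starts of several of these genes are shown because they carry, or lack, a pyrimidine run over the annotated start. Each line holds 15 bases before the RefSeq start and 15 from it on (GRCm38.p6), and capitals mark a run of 5 or more C or T bases that covers the start base. Such a run can begin before the start and need not have a cytosine at it, so it is a looser mark than the 5′ TOP element. In Rps9 most of the run lies before the start base, which is a T. The genes are those that lead the comparisons, with Rpl28, Rplp0 and Rpl3l for the exon and reference values.
Rps9 (chr7:3704026-3704055, plus strand): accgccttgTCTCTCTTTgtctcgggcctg
Rps15a (chr7:118116133-118116162, minus strand): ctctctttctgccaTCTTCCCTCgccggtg
Rpl28 (chr7:4792950-4792979, plus strand): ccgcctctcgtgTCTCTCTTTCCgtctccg
Rps28 (chr17:33824548-33824577, minus strand): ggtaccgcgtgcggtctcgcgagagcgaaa
Rps12 (chr10:23787195-23787224, minus strand): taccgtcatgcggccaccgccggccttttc
Rps4x (chrX:102189377-102189406, minus strand): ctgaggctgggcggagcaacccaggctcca
Rplp0 (chr5:115559452-115559481, plus strand): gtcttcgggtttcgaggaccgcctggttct
Rpl3l (chr17:24727811-24727840, plus strand): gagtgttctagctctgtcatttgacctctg

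RefSeq starts were found for 42 of the 53 genes. By this looser mark, 17 of these (40.5%) had a run of at least 5 C or T bases covering an annotated start. The share was 11.8% of all 27025 genes with a RefSeq start. In quad, the median log2 fold change of HSA-LR over WT mice was 0.15 for the 17 genes with the run, of which 3 were called, and 0.16 for the 25 without it, of which 5 were called. A missing run says only that these letters are not at the annotated position.

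Libraries held between 98916844 and 143135976 exon counts. The muscle genes Ckm, Acta1, Myh4, Myh1 and Ttn were abundant in every library, with Ckm between 16176 and 33589 CPM (counts-per-million, scaled to a TMM-normalised library size). Treated mouse 3 stood apart in gast: its median log2 ratio of 5′ to 3′ coverage over 6122 long genes was -0.60, against -0.22 to -0.04 in the 17 other libraries. Results in gast are therefore also given without it. The recorded sex of 2 WT mice did not match their reads: mouse 2, recorded as a female, had 153 and 189 CPM summed over 4 Y-linked genes in gast and quad, and mouse 3, recorded as a male, had 1.13 and 1.45 CPM. The Y-linked sum was 133 to 189 CPM in every other library, so the low level stood in the WT group alone and its part in the results was not tested. Without WT mouse 3 the median log2 fold change of the 53 genes for HSA-LR over WT mice was 0.19 in gast and 0.20 in quad, with 1 and 5 genes called. The shares of all genes called without this mouse are not given here.

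The 53 genes together were higher in HSA-LR than in WT mice in both muscles. In gast their summed level was 9976, 9736 and 10258 CPM in WT mice 1 to 3, 11026, 11285 and 11441 in HSA-LR mice, and 10434, 10180 and 14451 in treated mice. All HSA-LR mice lay above all WT mice, treated mice 1 and 2 lay near the WT range, and treated mouse 3 lay above every other library. In quad the sum was 8938, 8678 and 9368 CPM in WT mice, 10034, 9534 and 10808 in HSA-LR mice, and 9148, 7991 and 9642 in treated mice. HSA-LR mice again lay above WT mice without overlap, and treated mice overlapped both. Because the sums come from bulk muscle, fewer cells of a type and less RNA per cell cannot be told apart.

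**Figure D1:**
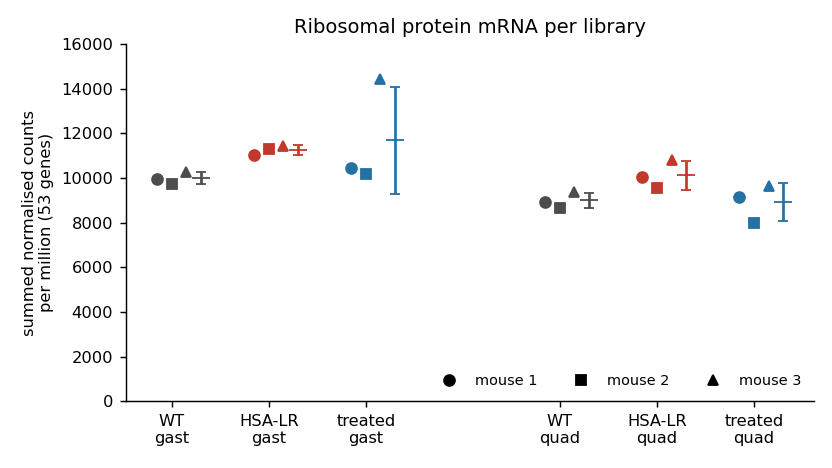
Summed CPM (TMM-normalised) of the 53 genes (y axis, from 0) for each library by group and muscle; symbols are mice and the bar with caps is the mean with its SD (n = 3). In gast the HSA-LR mice sit between 11026 and 11441 and the WT mice between 9736 and 10258, and treated mouse 3 reaches 14451.

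The rise was shared across the genes and small for each. In gast, HSA-LR mice had a positive log2 fold change over WT mice for 48 of 53 genes, with a median of 0.17 and a range of -0.14 to 0.67, while the median over all 15625 genes tested was -0.01. In quad the log2 fold change was positive for 51 of 53 genes, with a median of 0.16 and a range of -0.08 to 0.41, against a median of 0.01 over 15574 genes. All 3 HSA-LR mice lay above all 3 WT mice for 33 genes in gast and for 28 in quad, and for 24 genes in both. Over all genes tested, 19% in gast and 17.3% in quad were separated in this direction. Across the 53 genes the log2 fold changes in gast and quad had a Pearson r of 0.84 and a Spearman rho of 0.86, as a description: the 2 muscles were taken to come from the same mice, and genes are not independent replicates.

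Fewer genes passed the test one by one (edgeR quasi-likelihood test, adjusted P under 0.1 over all genes). In gast 2 of 53 were called higher and none lower, beside 8.6% of all genes called higher. In quad 10 of 53 were called higher and none lower, beside 11% of all genes. Without treated gast mouse 3, 24 of 53 were called higher in HSA-LR gast, beside 12.3% of all genes, and all 10 genes called in quad were among these 24. The HSA-LR and WT libraries are the same in both gast fits, and the median log2 fold change was 0.18 in place of 0.17. Leaving out any other gast library gave 3 calls without treated mouse 2 and 1 call in each other case, and the shares of all genes called there are not given here.

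**Figure D2:**
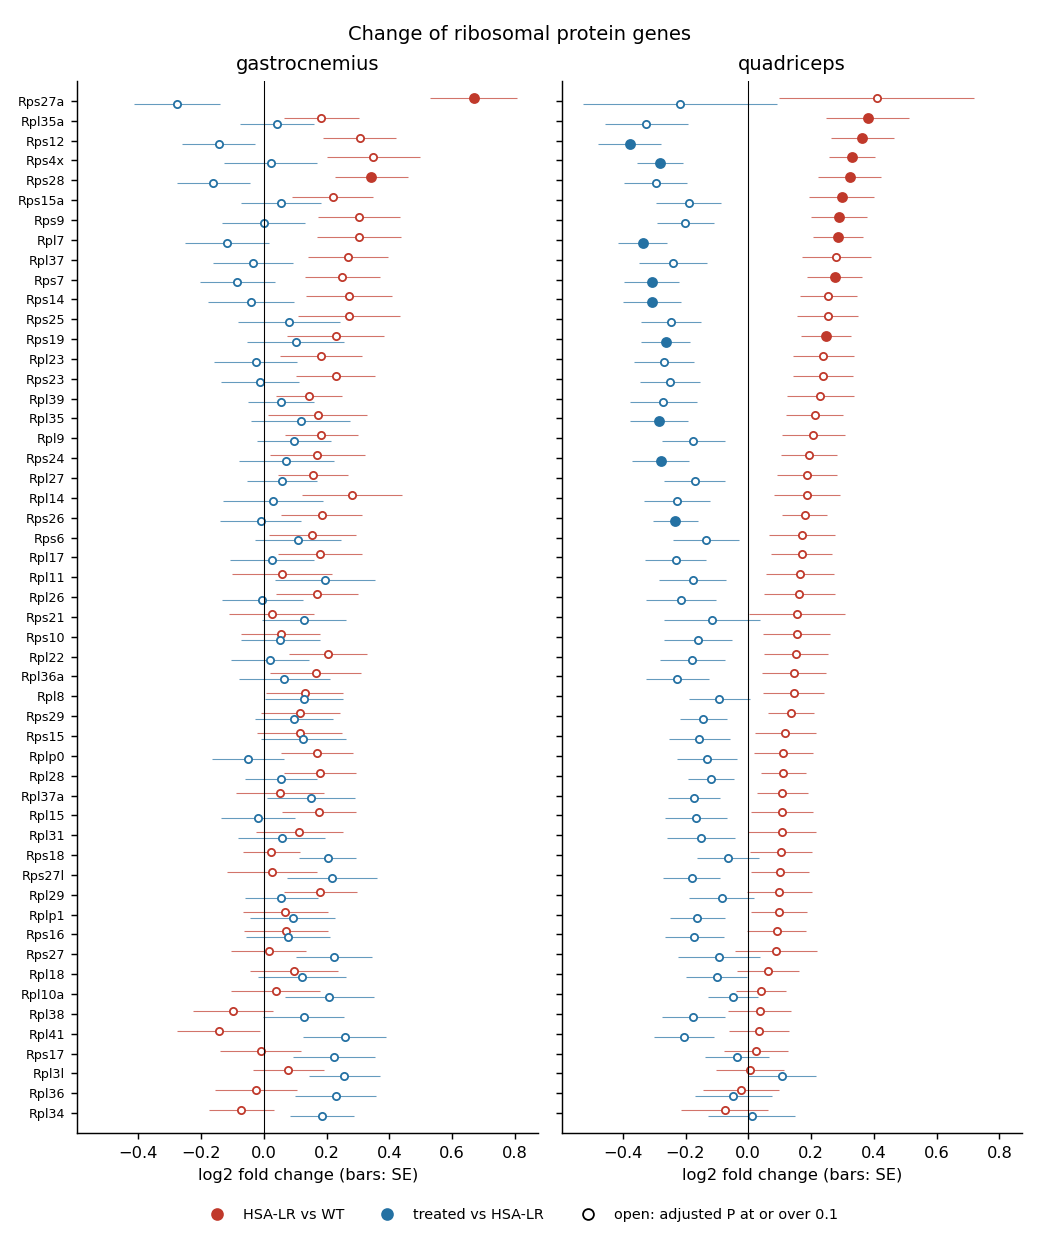
Log2 fold change of 52 of the 53 genes (x axis; bars are the standard error) in gast (left) and quad (right), for HSA-LR over WT mice (red) and treated over HSA-LR mice (blue); filled points have adjusted P under 0.1. In quad red points lie mostly to the right and blue points mostly to the left of 0, while in gast blue points scatter around 0, in a fit that holds treated mouse 3.

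Small-subunit genes made up most of the calls with all libraries in the fit. In quad 8 of 24 small-subunit genes were called higher in HSA-LR mice, with a median log2 fold change of 0.22, and 2 of 29 large-subunit genes, with a median of 0.15. Beside these, 11% of all genes were called higher. The difference between the subunits was not tested. Both genes called in gast with all mice, Rps27a and Rps28, belong to the small subunit. Without treated gast mouse 3, the 24 genes called also held many of the large subunit. These were Rpl7, Rpl9, Rpl14, Rpl17, Rpl22, Rpl26, Rpl28, Rpl35, Rpl35a and Rpl37.

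Rps4x, the X-linked gene of a small-subunit protein, had the smallest P in quad. Its level was 247, 249 and 242 CPM in WT mice, 319, 292 and 317 in HSA-LR mice, and 256, 238 and 269 in treated mice. HSA-LR mice lay above both other groups without overlap. The log2 fold change was 0.33 ± 0.07 (SE, edgeR adjusted P = 0.020) over WT mice and -0.28 ± 0.07 (adjusted P = 0.055) for treated over HSA-LR mice. In gast it was 289, 274 and 284 CPM in WT mice, 339, 363 and 376 in HSA-LR mice, and 324, 304 and 467 in treated mice. The gast log2 fold changes of Rps4x were 0.35 ± 0.15 (edgeR adjusted P = 0.18) and 0.02 ± 0.15 (adjusted P = 0.95), and without treated mouse 3 they were 0.36 ± 0.07 (adjusted P = 0.011) and -0.20 ± 0.07 (adjusted P = 0.16).

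Rps12 and Rps7, further proteins of the small subunit, followed the same order in quad. Rps12 measured 95.0, 87.0 and 100.2 CPM in WT, 117, 118 and 128 in HSA-LR and 99.3, 80.7 and 99.5 in treated mice. Its log2 fold change was 0.36 ± 0.10 (edgeR adjusted P = 0.043) for HSA-LR over WT and -0.38 ± 0.10 (adjusted P = 0.057) for treated over HSA-LR mice. Rps7 measured 118, 110 and 119 CPM in WT, 138, 131 and 151 in HSA-LR and 119, 102 and 118 in treated mice. For both genes the HSA-LR mice did not overlap either other group. The log2 fold change of Rps7 was 0.28 ± 0.09 (edgeR adjusted P = 0.069) and -0.31 ± 0.09 (adjusted P = 0.067).

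Rpl7, of the large subunit, was the large-subunit gene with the smallest P. In quad its level was 314, 310 and 317 CPM in WT mice, 384, 355 and 407 in HSA-LR mice and 305, 283 and 319 in treated mice. The spread among WT mice was small beside the step to HSA-LR mice. The log2 fold change was 0.29 ± 0.08 (edgeR adjusted P = 0.043) over WT mice and -0.34 ± 0.08 (adjusted P = 0.040) on treatment. In gast the levels were 353, 334 and 371 CPM in WT, 415, 440 and 452 in HSA-LR and 363, 345 and 496 in treated mice, with log2 fold changes of 0.30 ± 0.13 (edgeR adjusted P = 0.20) and -0.12 ± 0.13 (adjusted P = 0.65). Without treated gast mouse 3 both were called for Rpl7, at 0.31 ± 0.07 (edgeR adjusted P = 0.022) and -0.31 ± 0.08 (adjusted P = 0.069).

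Rps28, a small-subunit gene, was called in HSA-LR mice in both muscles. In gast it measured 87.3, 89.0 and 96.2 CPM in WT, 114, 117 and 114 in HSA-LR and 92.9, 92.3 and 124 in treated mice. In quad it measured 84.9, 74.7 and 91.4 CPM in WT, 107, 101 and 106 in HSA-LR and 80.7, 79.6 and 95.5 in treated mice. HSA-LR mice lay above WT mice in each muscle. The log2 fold change over WT was 0.34 ± 0.12 in gast (edgeR adjusted P = 0.098) and 0.32 ± 0.10 in quad (adjusted P = 0.066). The other genes called higher in quad were Rps9, Rps15a, Rps19, whose human counterpart is mutated in Diamond-Blackfan anemia, and Rpl35a, with log2 fold changes of 0.25 to 0.38. The Rps28 call in gast was lost without any single HSA-LR or WT library or treated mouse 1 (edgeR adjusted P = 0.11 to 0.25), and its call in quad without any HSA-LR library or WT mouse 1 or 2 (adjusted P = 0.11 to 0.19).

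Treatment lowered part of the genes in quad. For treated against HSA-LR mice the log2 fold change was negative for 51 of 53 genes in quad, with a median of -0.18, and 10 of 53 were called lower and none higher, beside 7.22% of all genes called lower. All 3 treated mice lay below all 3 HSA-LR mice for 27 genes, and 16.2% of all genes were separated in this direction. Of the 10 genes called higher in HSA-LR quad, 6 were also called lower on treatment, among them Rpl7, Rps4x, Rps7, Rps12 and Rps19. The 4 further genes called lower were Rpl35, Rps14, Rps24 and Rps26. The 2 comparisons share the HSA-LR libraries, so they are not independent of each other. Against WT mice, treated quad had 0 of 53 genes called by edgeR, 0 by DESeq2 and 0 at an unadjusted P under 0.05, with a median of -0.02 and a range of -0.17 to 0.19, beside 1.41% of all genes called.

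The quad counts rested on few libraries, with several calls near the threshold. The 10 genes called higher in HSA-LR quad became 2 without HSA-LR mouse 1, 1 without HSA-LR mouse 3, 3, 1 and 5 without WT mice 1, 2 and 3, and 5 without treated mouse 1. The 10 called lower on treatment became 0 without HSA-LR mouse 1 or without treated mouse 1 or 2, 4 without HSA-LR mouse 2 or 3, and 6 without WT mouse 1. For HSA-LR over WT mice, Rps4x kept its call with each library left out, Rps12 lost it without HSA-LR mouse 3 or WT mouse 2, and Rpl7 without HSA-LR mouse 1 or 3 or WT mouse 1 or 2. The median log2 fold changes kept their sign with each library left out, between 0.11 and 0.20 for HSA-LR over WT mice and between -0.27 and -0.12 on treatment. Within groups, HSA-LR mouse 3 was the highest of its group for 48 genes, and treated mouse 2 the lowest of its group for 52. With the 5′ to 3′ coverage ratio as a covariate, 10 genes were called higher in HSA-LR quad and 0 lower on treatment, where the median was -0.13.

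In gast the effect of treatment depended on treated mouse 3. With all mice, treated and HSA-LR mice differed in 0 of 53 genes in either direction, beside 10% of all genes called; 2 genes, Rpl3l and Rps18, had an unadjusted P under 0.05, DESeq2 also called 0, and the median log2 fold change was 0.06, against -0.18 and 10 genes called with the 5′ to 3′ ratio as covariate. The share of all genes called with that covariate is not given here. All 3 treated mice lay below all 3 HSA-LR mice for 0 genes, beside 15.5% of all genes. Without mouse 3 the median was -0.13 and 6 genes were called lower, beside 4.96% of all genes called lower, among them Rpl7, Rpl37, Rps12, Rps27a and Rps28. Against WT mice, treated gast had 0 of 53 genes called, 6 with an unadjusted P under 0.05 and 0 by DESeq2, beside 1.04% of all genes. The median log2 fold change over WT was 0.22 with mouse 3 and 0.04 without it.

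The per-library medians show how far mouse 3 departed. Relative to the WT mean of each gene, the median log2 level was 0.04, 0.02 and 0.52 in gast of treated mice 1, 2 and 3, and 0.12, 0.17 and 0.20 in HSA-LR mice 1, 2 and 3. Treated mouse 3 was the highest of its group for 53 of 53 genes. Its quad library, with a coverage ratio of -0.09, had a median of 0.08. HSA-LR and WT gast libraries also differed in this ratio without overlap, at -0.10, -0.10 and -0.09 against -0.20, -0.13 and -0.19. The part of the coverage ratio in the gast values was not tested.

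**Figure D3:**
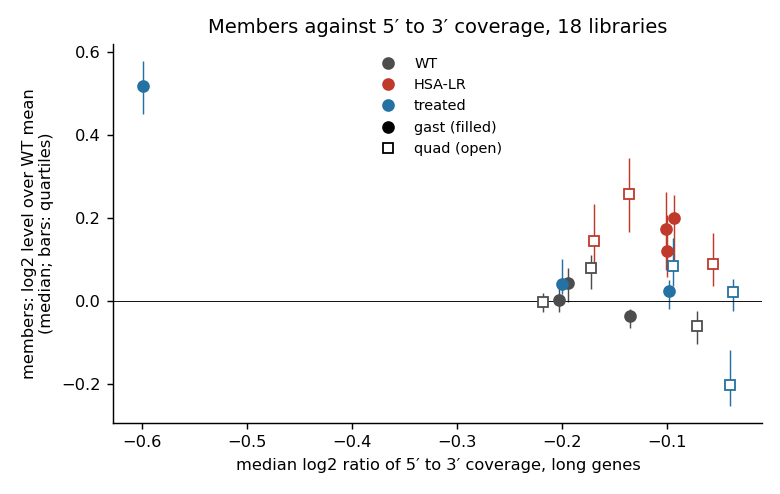
Median log2 level of the 53 genes over their WT mean (y axis; bars are the quartiles over genes) against the median log2 ratio of 5′ to 3′ coverage in long genes (x axis), for 18 libraries; filled circles are gast and open squares quad. Treated gast mouse 3 lies alone at -0.60 and 0.52. The HSA-LR libraries lie between 0.09 and 0.26, within the coverage range of the other groups pooled over both muscles. Within gast alone, all HSA-LR libraries lie to the right of all WT libraries.

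Between muscles, the genes tended to be lower in quad. In WT mice the log2 difference of quad from gast was negative for 52 of 53 genes, with a median of -0.17 against 0.01 over all genes. No gene was called (0 of 53), 4 had an unadjusted P under 0.05, DESeq2 and the fit with the mouse as a block also called 0, and 0.297% of all genes were called. The 3 genes with the smallest P were Rps12 at -0.27, Rplp0 at -0.24 and Rps10 at -0.27. The change of HSA-LR from WT mice did not differ between muscles for any gene by edgeR (0 of 53 called, 0 with an unadjusted P under 0.05, 0 by DESeq2, 0% of all genes), and its median difference was 0.00. For treated against HSA-LR mice the difference between muscles had a median of -0.24, which turned to 0.05 with the 5′ to 3′ ratio as covariate, with 0 of 53 genes called, 3 at an unadjusted P under 0.05, 0 by DESeq2 and 0% of all genes. Without treated mouse 3 in both muscles that median was -0.12.

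Expressed per kilobase of annotated exon, the genes spanned a wide range. Exon lengths were known for 37 of the 53 genes. In WT gast the highest levels per kilobase were those of Rplp1 and Rplp0, proteins of the stalk that recruits elongation factors, at 514 and 406 CPM per kilobase, and of Rps15 at 303. The lowest were Rpl34 at 4.28, Rpl29 at 8.58 and Rps19 at 29.4 CPM per kilobase. Union exon length counts every annotated isoform, so the level of a gene with long rare exons, such as Rps19, is understated on this scale. Rpl34 and Rpl29 were also low without this scaling, at means of 11.3 and 9.66 CPM in WT gast, and the cause was not tested.

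Rplp0, used as the reference gene for quantitative RT-PCR in the study, was the most abundant of the 53 genes. In gast its level was 627, 640 and 754 CPM in WT mice, 754, 743 and 777 in HSA-LR mice, and 690, 669 and 835 in treated mice. In quad it was 541, 541 and 648 CPM in WT, 620, 589 and 661 in HSA-LR and 593, 540 and 573 in treated mice. The groups overlapped in both muscles, with WT mouse 3 the highest WT mouse in each. The log2 fold change of HSA-LR over WT mice was 0.17 ± 0.11 in gast (edgeR adjusted P = 0.40) and 0.11 ± 0.10 in quad (adjusted P = 0.50). Rplp1, its partner in the stalk, had log2 fold changes of 0.07 and 0.10.

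Of the paralogs with a symbol ending in l and their partners, the list held Rpl3l, Rps27l, Rps27 and Rpl39, and none was called. Rps4x, also counted as a paralog here, was called in quad as given above. Rpl3l encodes the striated-muscle counterpart of the large-subunit protein Rpl3 and was the second most abundant gene of the list by counts. In gast it measured 456, 475 and 449 CPM in WT, 494, 492 and 471 in HSA-LR and 510, 545 and 685 in treated mice. In quad it measured 429, 455 and 466 CPM in WT, 443, 413 and 499 in HSA-LR and 492, 425 and 544 in treated mice. Its log2 fold change of HSA-LR over WT mice was 0.08 ± 0.11 in gast and 0.00 ± 0.11 in quad. All treated gast mice lay above all HSA-LR gast mice, with a log2 fold change of 0.26 ± 0.11 (edgeR adjusted P = 0.22) that was 0.11 ± 0.07 without treated mouse 3 (adjusted P = 0.41). Rps27l and its partner Rps27 had HSA-LR log2 fold changes of 0.03 and 0.02 in gast and 0.10 and 0.09 in quad. Rpl39, whose partner Rpl39l fell below the count minimum, had 0.14 and 0.23.

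Within genes, the part of the counts that falls in each exon bin was compared (edgeR diffSpliceDGE, adjusted P under 0.1 over all bins). Of 632 bins of the 53 genes tested in gast, 3 (0.475%) were called for HSA-LR against WT mice, beside 0.819% of all bins, and 2 (0.316%) for treated against HSA-LR mice, beside 0.309%. Of 615 tested in quad, 2 (0.325%) were called for HSA-LR against WT mice, beside 0.284%, and 1 (0.163%) for treated against HSA-LR mice, beside 0.168%. A single bin, in Rpl28, was called in all 4 comparisons. The 3 bins called in HSA-LR gast became 1 without any HSA-LR mouse or without WT mouse 1 or 2, and 6 without treated mouse 3, and the 2 in HSA-LR quad became 1 without HSA-LR mouse 1. On treatment the 2 in gast became 1 without HSA-LR mouse 1 or 2, and the 1 in quad became 0 without treated mouse 1, 2 without HSA-LR mouse 1 or WT mouse 3, 3 without WT mouse 1 or 2, and 7 without HSA-LR mouse 3. The shares of all bins called without these libraries are not given here. Rpl28 encodes a large-subunit protein, and its level was not called in any comparison with all mice; without treated gast mouse 3 it was among the 24 genes called higher in HSA-LR gast.

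The Rpl28 bin spans chr7:4792999-4793320 on the plus strand (GRCm38, 322 bases). It is the first intron of the main transcript Rpl28-201, inside the 5′ UTR, and an exonic UTR stretch of the annotated transcript Rpl28-202. Its edges are shown because they hold the splice signals at either end of the intron, with the first and last intron bases in capitals.
Rpl28 upstream edge (chr7:4792990-4793019): ggagaggagGTgagtgtgaggcctctgtcc
Rpl28 downstream edge (chr7:4793300-4793329): ccccccccggcttctccccAGccgccgcca

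Reads in this intron took 0.155%, 0.225% and 0.169% of Rpl28 counts in gast of WT mice, 0.491%, 0.603% and 0.609% in HSA-LR mice, and 0.195%, 0.175% and 0.150% in treated mice. In quad the shares were 0.176%, 0.195% and 0.235% in WT, 0.548%, 0.651% and 0.555% in HSA-LR and 0.239%, 0.304% and 0.261% in treated mice. Every HSA-LR library lay above every WT and treated library. The bin held 49 to 84 counts per WT gast library and 188 to 241 per HSA-LR gast library, so these are small shares of an abundant mRNA.

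The share was 3.10 times that of WT mice in HSA-LR gast and 2.89 times in HSA-LR quad. Relative to the rest of the gene, the log2 change was 1.63 in gast (edgeR diffSpliceDGE adjusted P = 1.1e-08) and 1.52 in quad (adjusted P = 4.1e-06). On treatment it was -1.74 in gast (edgeR diffSpliceDGE adjusted P = 2.4e-09) and -1.12 in quad (adjusted P = 0.0068). In quad the treated share, 0.268% ± 0.033 (SD, n = 3), was 1.33 times the WT share of 0.202% ± 0.030, and treated mice lay above WT mice without overlap (exact permutation P = 0.10, 2-sided, the smallest that 3 against 3 allows). In gast the treated share was 0.95 times that of WT mice (exact permutation P = 0.80). The call on treatment in quad was lost without HSA-LR mouse 2 (edgeR adjusted P = 0.13) or treated mouse 1 (adjusted P = 0.31), at log2 changes of -1.05 and -1.05.

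**Figure D4:**
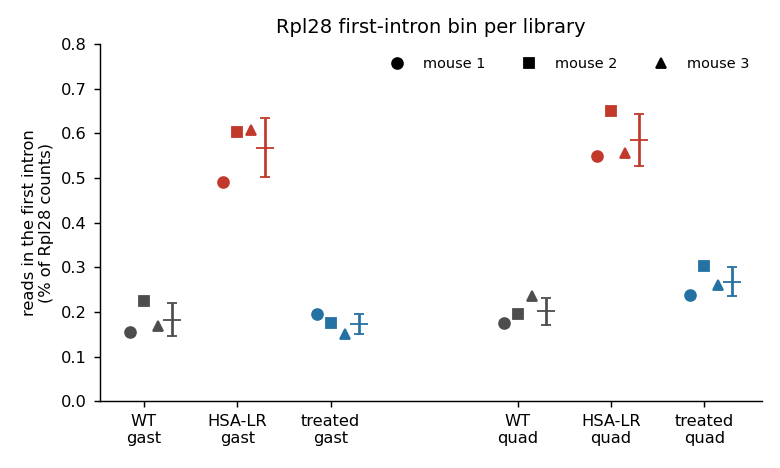
Reads in the first-intron bin of Rpl28 as a percentage of all Rpl28 counts (y axis, from 0) by group and muscle; symbols are mice and the bar with caps is the mean with its SD (n = 3). The 6 HSA-LR libraries lie between 0.491% and 0.651%, and the 12 others between 0.150% and 0.304%.

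The 4-letter core to which the MBNL splicing factors are known to bind was counted on the transcribed strand of the bin: TGCT occurred 4 times, TGCC and CGCT each occurred 4 times and CGCC occurred 2 times, 14 times in the 322 bases in all. Every start position was counted, so neighbouring matches can share a base. In the first 322 bases of 12069 annotated transcripts, 1 for each tested gene, the median was 6, and 8.29% held at least 14. The GC content of the bin was 64.0%, and no correction for base composition was made, so this is a description of the letters only.

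Other called bins were smaller or uneven among mice. Bin 1 of Rpl15 took 10.5%, 9.91% and 9.92% of the gene's counts in WT gast, 6.4%, 6.05% and 5.92% in HSA-LR gast and 8.84%, 9.75% and 9.66% in treated gast, and was called for HSA-LR against WT mice at a relative log2 change of -0.73 (edgeR diffSpliceDGE adjusted P = 0.043). In quad it took 11.5%, 11% and 9.81% in WT, 6.70%, 6.16% and 6.97% in HSA-LR and 9.19%, 10.6% and 10.4% in treated mice, with adjusted P = 0.36 by edgeR diffSpliceDGE. HSA-LR mice were the lowest in both muscles. Bin 2 of Rpl3l (chr17:24728174-24728218), in the UTR of Rpl3l-203, took 0.0968%, 0.101% and 0.136% in WT gast and 0.214%, 0.192% and 0.201% in HSA-LR gast, a relative log2 change of 0.86 (edgeR diffSpliceDGE adjusted P = 0.045).

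Bin 15 of Rps15a was called for treated gast at a relative log2 change of -2.61, but its counts were 60, 1 and 42 in WT, 59, 69 and 0 in HSA-LR and 15, 1 and 4 in treated mice. Values near 0 and near 60 occurred within both the WT and the HSA-LR group. Bin 8 of Rpl7, in the retained-intron transcript Rpl7-206, had 73, 76 and 61 counts in WT quad, 14, 82 and 16 in HSA-LR quad and 59, 16 and 23 in treated quad, and HSA-LR mouse 2 lay with the WT mice.

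Rps27a had the largest fold change of the list in both muscles and an unequal coverage along the gene. It encodes ubiquitin fused to a small-subunit protein. In gast its level was 143, 117 and 134 CPM in WT, 194, 222 and 209 in HSA-LR and 167, 142 and 207 in treated mice, a log2 fold change of 0.67 ± 0.14 (edgeR adjusted P = 0.016) for HSA-LR over WT mice. HSA-LR gast mice lay above WT mice without overlap. In quad it was 129, 146 and 99.4 CPM in WT, 200, 88.6 and 209 in HSA-LR and 111, 138 and 179 in treated mice. HSA-LR mouse 2 was the lowest of all 9 quad libraries, and the change was not called (log2 fold change 0.41 ± 0.31, edgeR adjusted P = 0.44).

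The libraries low in quad were lowest at the 5′ side of the gene. Bin 8 of Rps27a (chr11:29547206-29547260, minus strand, coding) took 14.8, 19.6 and 6.46 CPM in WT quad, 27.3, 0.884 and 28.4 in HSA-LR quad and 8.72, 19.4 and 25.1 in treated quad. Bin 3, nearer the 3′ end (chr11:29546291-29546422), took 37.8, 40.5 and 32.7 CPM in WT, 55.1, 32.8 and 57.6 in HSA-LR and 35.6, 38.7 and 49.0 in treated quad. In HSA-LR mouse 2 bin 8 was thus far below every other library while bin 3 was near the WT level, and in gast of the same mouse bin 8 stood at 28.9 CPM. Among 407 bins of the 53 genes with a mean of at least 1 CPM, the share of the gene differed by over 4-fold between libraries in 3, all of them 5′ bins of Rps27a. Rps27a has near-identical copies in the genome, and how reads were split between them was not tested.

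**Figure D5:**
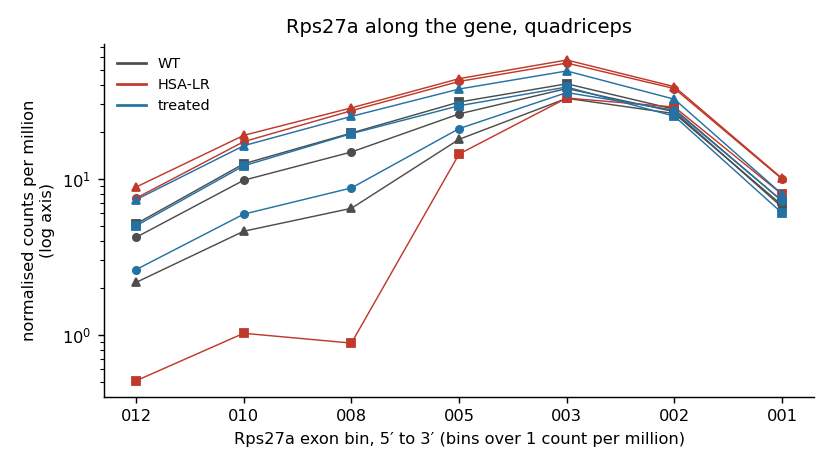
CPM (log axis) in the exon bins of Rps27a with over 1 CPM, ordered from the 5′ to the 3′ end, in the 9 quad libraries; circles, squares and triangles are mice 1, 2 and 3. HSA-LR mouse 2 (red squares) lies at 0.884 CPM in bin 8, where the others lie between 6.46 and 28.4, and joins them at bins 3 to 1.

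Lists of genes that act with the ribosome moved in different ways. Of 7 subunit genes outside the naming rule, 5 were tested: Rps3a1 was called higher in HSA-LR quad (log2 fold change 0.23 ± 0.08, edgeR adjusted P = 0.085), and Rpl22l1 and Rpl7l1, paralogs of Rpl22 and Rpl7, were called higher in treated than in HSA-LR gast (0.57 ± 0.14 and 0.30 ± 0.08). The 5 tested genes summed to 558 to 599 CPM in WT gast and 636 to 685 in HSA-LR gast. In quad they summed to 516 to 532 CPM in WT and 565 to 633 in HSA-LR mice. Of the 5, 3 had positive and 2 negative log2 fold changes in each muscle. Of 13 tested elongation factors and other genes with 5′ TOP mRNAs, 3 were called higher in HSA-LR mice in each muscle and none lower. These were Eef1g, the gamma subunit of elongation factor 1, Hnrnpa1 and Eif3h. Across the 13, 10 log2 fold changes were positive and 3 negative in each muscle, with medians of 0.18 in gast and 0.13 in quad. Eef1g had log2 fold changes of 0.74 ± 0.11 in gast (edgeR adjusted P = 0.0036) and 0.66 ± 0.10 in quad (adjusted P = 0.0031), above the highest of the 53 genes in each muscle, and was called lower on treatment at -0.39 and -0.38.

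For the lists and markers that follow and the preceding lists, 8.6% of all genes were called higher and 6.94% lower in HSA-LR gast. In HSA-LR quad 11% were called higher and 9.31% lower. On treatment 10% of all genes were called in either direction in gast, and 7.22% were called lower in quad. The share called higher on treatment in quad is not given here. Treated gast values of these lists and markers all include treated mouse 3 and are not given without it. The mTORC1 pathway, which controls ribosome synthesis, had 1 of 23 genes called higher and 3 lower in HSA-LR gast, and 1 higher and 2 lower in HSA-LR quad, with medians of -0.02 and -0.03. Rragd, a Rag GTPase that recruits mTORC1 to lysosomes, was the gene called higher in both, at 0.59 ± 0.09 and 0.68 ± 0.10. Called lower in gast were Eif4ebp2 at -0.68 ± 0.21, Rheb at -0.28 ± 0.07 and Rraga, another Rag GTPase, at -0.23 ± 0.07. Called lower in quad were Ddit4 at -1.42 ± 0.40 and Flcn at -0.43 ± 0.15. The median over the list does not measure the activity of the pathway, which was not tested. In ribosome biogenesis, 2 of 31 genes were called higher and 2 lower in each muscle: Fbl, the methyltransferase of box C/D particles, and Polr1d rose, and Dkc1, the pseudouridine synthase, and Bop1 fell. Fbl fell again on treatment by 0.47 in gast and 0.37 in quad on the log2 scale, and Dkc1 rose by 0.30 and 0.31. Nle1 and Myc were also called higher in treated gast, and Polr1e lower in treated quad. Among initiation factors, 1 of 12 was called higher and 1 lower in each muscle. Of 70 mitochondrial ribosomal protein genes, 2 were called higher in HSA-LR gast, and 1 higher and 2 lower in quad, with medians of 0.05 and -0.01.

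Markers of other cells also moved with the groups. In quad, 6 of 8 macrophage markers were called higher in HSA-LR than in WT mice and 6 lower on treatment; their summed level ranged from 49.9 to 70.8 CPM in WT, 92.8 to 125 in HSA-LR and 48.0 to 71.8 in treated mice. In gast 2 of 8 were called higher in HSA-LR mice, with a median log2 fold change of -0.03 over the 8, and 3 lower on treatment, and the ranges were 64.1 to 88.6 in WT, 77.6 to 91.2 in HSA-LR and 52.9 to 83.1 in treated mice. Of 4 tested fibroblast markers, 3 were called higher in HSA-LR quad and 1 in HSA-LR gast, and of 4 Schwann cell markers 3 were called lower in HSA-LR quad. Of 10 fast fiber markers, 6 were called lower in HSA-LR quad and 4 higher on treatment, and their summed level ranged from 216245 to 241683 CPM in WT, 162863 to 193979 in HSA-LR and 206785 to 262311 in treated quad. In HSA-LR gast 1 fast fiber marker was called higher, Myh1 at 1.97 ± 0.35, and 1 lower, Atp2a1 at -0.47 ± 0.13. The summed fast fiber markers ranged from 196339 to 236611 CPM in WT gast and from 169433 to 182501 in HSA-LR gast. In treated gast 5 fast fiber markers were called higher and 1 lower, Myh1 at -2.38 ± 0.36. In treated gast 1 fibroblast marker, Lum, was called lower. In quad 2 of 4 satellite cell markers were called higher and 2 of 5 endothelial markers lower in HSA-LR mice. The summed slow fiber markers ranged from 230 to 639 CPM in WT, 111 to 236 in HSA-LR and 137 to 2319 in treated quad, and the adipocyte markers from 407 to 1411, 129 to 1421 and 163 to 336. Of the slow fiber markers, 6 of 8 were called higher on treatment in quad. For 0 of these 8 did all treated mice lie above all HSA-LR mice. The share of all genes called higher on treatment in quad is not given here, so the slow and fast fiber counts have no baseline. In quad no adipocyte, erythroid or T and B cell marker was called. No marker list was at 0 in any group, and the part of these cells in the ribosomal protein values was not tested.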

How the data were processed

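Poly(A) RNA from 18 muscle samples was sequenced as stranded paired-end libraries. The authors deposited raw counts of reads per exon bin (GRCm38); the submitters' processing notes name CASAVA, HISAT and featureCounts 1.5.0. Bins were summed per gene. Rows that name no gene, 2.81% to 4.14% of each library, were left out. Symbols, bin positions and biotypes came from GENCODE M21, and 46520 of 46725 genes had a symbol. Members and gene lists were chosen with earlier results of these data known.

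Genes with enough counts (edgeR 4.0.16 filterByExpr, minimum count 10) were TMM-normalised and tested by the quasi-likelihood method, 9 libraries per muscle in 1 fit, or 18 for comparisons between muscles, with Benjamini-Hochberg adjustment over all genes and calls at adj. P under 0.1. Exon bins were tested with diffSpliceDGE, whose natural-log changes were converted to log2. Methods were tested on simulated data. Alternatives were DESeq2 1.42.0, limma 3.58.1 voom, other normalisations and filters, the largest bin per gene, the 5′ to 3′ ratio as covariate, length-trend removal, fits of 2 groups, replicate blocks and leaving out each library. Gast and quad libraries of equal number were taken as 1 mouse because the study describes both muscles of the treated mice. Their deviations had a median r of 0.21 over 9 pairs (0.06 to 0.51). The highest r was that of WT mouse 3, and the next was 0.25. Same-number pairs of different groups ranged from -0.25 to 0.27, so these values do not settle that the libraries share a mouse.

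The text names Rplp0 and paralogs, then up to 5 called genes with the smallest P in each direction per comparison (3 genes where fewer than 3 were called), the 3 highest and lowest genes per kilobase, all called bins and the genes next to the count minimum. Other names were chosen after their values were seen. The values of 1 gene are not reported here, and it is kept in the counts and sums.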

Additional observations from a re-analysis of the deposited data

Results flagged for a closer look

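Rpl41, which encodes the smallest protein of the large subunit, was higher in all treated than in all HSA-LR mice in gast and lower in all of them in quad, and was not called in either muscle. Its log2 fold change for treated over HSA-LR mice was 0.26 ± 0.13 in gast and -0.21 ± 0.10 in quad. In gast it measured 164, 162 and 166 CPM in HSA-LR mice and 176, 168 and 244 in treated mice, and in quad 164, 162 and 170 in HSA-LR mice and 153, 127 and 151 in treated mice. The test of the difference between the muscles gave -0.46 (edgeR adjusted P = 0.63 over all genes, unadjusted P = 0.014). Treated gast mouse 3, the library with the low 5′ to 3′ ratio, holds the highest of these values. Without it the gast value was 0.06 ± 0.07 (edgeR adjusted P = 0.64). Groups of 3 are too small for a test of single outlying samples, so none was made.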

How the results depend on the processing

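The median change of the 53 genes kept its sign for HSA-LR over WT mice under every alternative in both muscles, while the number of genes called did not hold. The median for treated against HSA-LR gast, 0.06, turned to -0.18 with the 5′ to 3′ covariate, -0.01 with the largest bin and -0.13 without treated mouse 3, that for treated against WT quad, -0.02, became 0.06 with the covariate, and that for the muscle difference on treatment, -0.24, became 0.05 with the covariate. For HSA-LR over WT mice in gast, the 2 calls became 35 with the 5′ to 3′ ratio as covariate, 22 in a fit of the 2 groups alone, 8 with the largest bin, 7 with the length trend removed, and 1 with any gene of 1 count kept or with the replicate block, and 1 to 24 with 1 library left out. In quad the 10 calls became 3 with any gene of 1 count kept, and 1 to 13 with 1 library left out. For treated against HSA-LR gast, the 0 calls became 10 with the covariate and 0 to 6 with 1 library left out; in quad the 10 calls became 0 with the covariate, 6 with the length trend removed, 5 with any gene of 1 count kept and 0 to 13 with 1 library left out. Treated against WT mice and the 3 comparisons between muscles stayed at 0 calls under all alternatives run. The shares of all genes called under the alternatives are not given here, except without treated gast mouse 3, nor are the shares of all bins. The counts therefore cannot be set against the change over all genes or bins.

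For bins, HSA-LR over WT gast had 3 calls, 6 with the covariate, 7 in a fit of the 2 groups and 1 to 6 with 1 library left out; in quad the 2 calls became 4 with 10 counts in every library, 5 with limma voom or the replicate block and 1 to 2 with 1 library left out. For treated against HSA-LR gast the 2 calls became 1 with 10 counts in every library and 1 to 3 with 1 library left out; in quad the 1 call became 3 with 10 counts in every library, limma voom, a fit of the 2 groups or the replicate block, and 0 to 7 with 1 library left out. The cause was not tested.

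Rplp0, never called, changed sign for treated over WT quad: the log2 fold change of -0.02 became 0.037 with the covariate, 0.018 with the largest bin, 0.019 with the length trend removed and -0.064 to 0.073 with 1 library left out. For treated over HSA-LR gast the Rplp0 value of -0.05 became -0.17 to 0.010 with 1 library left out. Mouse numbers of different groups share only a number: 18 same-number pairs deviated with a median r of 0.00 (-0.25 to 0.27), so the replicate block stands as an alternative only. The Rpl28 bin held 49 counts in its lowest library, which limits the precision of its share.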

Other observations

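Pseudogenes named after ribosomal protein genes, 268 of which are in the tables, summed to 305, 325 and 377 CPM in WT gast, 353, 367 and 362 in HSA-LR gast and 354, 323 and 457 in treated gast. In quad the mean was 295 ± 57.0 CPM in WT, 298 ± 24.8 in HSA-LR and 318 ± 18.1 in treated mice (SD, n = 3). HSA-LR mice overlapped WT mice in both muscles, unlike the sum of the 53 genes.

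The spread between mice differed among groups. The median coefficient of variation of the 53 genes was 2.87% in HSA-LR gast, 4.43% in WT gast and 20.5% in treated gast, and 6.4%, 6.02% and 10.8% in HSA-LR, WT and treated quad. The treated gast value includes mouse 3, which was the highest of its group for 53 of 53 genes. The highest value, 40.4%, was that of Rps27a in HSA-LR quad, at 200, 88.6 and 209 CPM.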
